A study of Rattus norvegicus with 70 samples.

Results

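The genes of the skeletal muscle contractile machinery were followed through RNA-seq libraries of rat fat. The list held 38 genes chosen by name, and 35 of them had counts among the 15319 genes of each of the 6 deposited tables, 1 table for each sex and depot. Ttn, Neb and Ryr1, which encode titin, nebulin and the muscle calcium release channel, were not analysed here. The fat came from 24 adolescent rats of the outbred Sprague-Dawley stock, as 24 libraries of brown adipose tissue (BAT), 23 of subcutaneous adipose tissue (SAT) and 23 of visceral adipose tissue (VAT). Rats arrived at 28 days of age and were assigned at random to inhale the polychlorinated biphenyl PCB 52 through the nose only, or to a sham group, for 4 h daily over 28 days. Males were 39 days old and females 42 days old when exposure began, so sex and age at the start cannot be told apart. The labels name no transgene, pooling of rats or further treatment. The 12 groups were PCB 52 and sham rats of each sex in each depot. Each held 6 libraries, except 5 of VAT from PCB 52 males and 5 of SAT from sham females. Male rats carry odd numbers and female rats even numbers. Each library is 1 rat's tissue, and equal numbers in 2 depots were read as the same rat, since 24 rats were assigned and the sexes and treatments match, although no label says so.

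A skeletal muscle fibre contracts when thick filaments of myosin pull on thin filaments of actin, with calcium released onto the troponin complex as the switch. Fast and slow fibres make the same machine from different genes: myosin heavy chains, myosin light chains and the 3 troponins each have a fast and a slow form. White and brown adipocytes do not build sarcomeres. In the rat the interscapular brown fat pad lies against back muscle, and its adipocytes descend from precursors shared with muscle, though the labels do not say which brown pad was taken. In bulk RNA, fewer cells of a type and less RNA per cell cannot be told apart, which applies to every level given here.

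The promoters of the muscle genes are shown because these genes moved together from library to library. Sequences are from RefSeq, build GRCr8, which is not the rn6 build named in the submitters' processing notes, so no position from the study was used. The 250 bases before the start site were read for 31 of the 35 genes. Capitals mark the E-box CAGCTG, the E-box CACCTG with its complement CAGGTG, and the CArG box bound by serum response factor. Both strands were searched, and the motifs share no overlapping match in the printed windows. Ckm, muscle creatine kinase, lies at chr1:88189211-88189460 on the plus strand. Acta1, skeletal actin, lies at chr19:68784195-68784444 on the minus strand. The fast troponin I gene Tnni2 lies at chr1:207024240-207024489 on the plus strand and the slow one, Tnni1, at chr13:49781279-49781528 on the plus strand. Mb, myoglobin, lies at chr7:110647743-110647992 and Mybpc2, fast myosin-binding protein C, at chr1:104154102-104154351, both on the minus strand.
Ckm: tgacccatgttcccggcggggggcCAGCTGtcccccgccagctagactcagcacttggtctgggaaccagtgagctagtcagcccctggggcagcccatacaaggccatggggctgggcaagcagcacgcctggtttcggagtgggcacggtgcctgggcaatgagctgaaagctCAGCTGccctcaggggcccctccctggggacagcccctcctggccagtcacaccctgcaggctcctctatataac
Acta1: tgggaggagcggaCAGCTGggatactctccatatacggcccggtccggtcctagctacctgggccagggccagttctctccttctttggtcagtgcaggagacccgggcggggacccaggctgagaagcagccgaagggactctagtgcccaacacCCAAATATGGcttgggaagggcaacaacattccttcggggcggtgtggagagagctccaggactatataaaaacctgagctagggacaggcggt
Tnni2: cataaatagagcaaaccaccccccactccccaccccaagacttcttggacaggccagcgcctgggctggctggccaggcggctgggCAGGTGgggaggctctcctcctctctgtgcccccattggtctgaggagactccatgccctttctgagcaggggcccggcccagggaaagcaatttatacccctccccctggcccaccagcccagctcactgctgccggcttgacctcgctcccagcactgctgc
Tnni1: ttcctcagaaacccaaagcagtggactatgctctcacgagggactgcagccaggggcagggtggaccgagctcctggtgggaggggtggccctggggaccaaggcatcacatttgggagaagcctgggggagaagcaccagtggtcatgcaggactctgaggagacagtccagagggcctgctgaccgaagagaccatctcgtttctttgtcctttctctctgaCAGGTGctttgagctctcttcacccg
Mb: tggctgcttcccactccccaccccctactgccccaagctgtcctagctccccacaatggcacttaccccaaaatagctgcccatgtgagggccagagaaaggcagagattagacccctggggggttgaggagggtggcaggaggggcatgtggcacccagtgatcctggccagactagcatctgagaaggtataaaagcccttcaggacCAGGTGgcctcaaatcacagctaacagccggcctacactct
Mybpc2: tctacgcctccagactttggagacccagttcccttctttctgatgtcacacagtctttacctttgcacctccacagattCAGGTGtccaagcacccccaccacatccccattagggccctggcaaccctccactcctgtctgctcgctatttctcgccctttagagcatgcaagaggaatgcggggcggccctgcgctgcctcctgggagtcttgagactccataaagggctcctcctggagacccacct

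The letters CAGCTG stood in 11 of the 31 muscle promoters (35.5%), among them Ckm, Acta1, Atp2a1 and Pygm, and in 12.0% of all 33469 promoters. CACCTG or its complement stood in 9 of 31 (29.0%), among them Mb, Mybpc2 and both troponin I genes, and in 15.9% of all. The binding motif of MEF2, a muscle transcription factor, stood in 5 of 31 (16.1%) and in 2.96% of all. The CArG box stood in 4 of 31 (12.9%) and in 1.5% of all. These are matches of letters in a window, not sites shown to be bound.

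Library totals ran from 4604116 to 9707132 counts. A level is given in CPM, the gene's count over the library's total count, scaled to the same total for all libraries, and 3 counts were taken as the limit of detection, which is 0.384 to 0.652 CPM in BAT, 0.358 to 0.461 in SAT and 0.309 to 0.464 in VAT. No gene lengths were at hand, so levels are compared between libraries and never between genes. The tissue labels were checked on defining markers. Ucp1, the uncoupling protein of brown fat, had a median of 5960.4 CPM in BAT, at most 1.38 in SAT and a median of 0 in VAT. Adiponectin (Adipoq) was at 301.5 CPM or more in every library. SAT also carried milk protein genes, with summed mammary gland markers of 10.1 to 241727 CPM. Several libraries stood apart. BAT of PCB 52 female 24 had the lowest Ucp1 of all BAT, at 113.6 CPM. VAT of sham female 8 held Ucp1 at 229.5 CPM and a trace of the Y-linked genes Ddx3y and Eif2s3y, 10 and 17 counts, which are at 0 in the other sham females. The VAT library labelled PCB 52 male 13 had no count of either gene, against the label. SAT of sham female 8 differed from the other SAT libraries in the ratios between muscle genes.

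Muscle transcripts were abundant in BAT, variable in SAT and nearly absent from VAT. The summed level of the 35 genes had a median of 20674 CPM over the 24 BAT libraries, 2000.3 CPM over the 23 SAT libraries and 133.5 CPM over the 23 VAT libraries. The range within a depot was wide: 658 to 85047 CPM in BAT, 136 to 37192 in SAT and 85.6 to 1958 in VAT. At its highest, in BAT of PCB 52 female 24, the 35 genes made up 8.505% of all counts. BAT sums, given as the lowest, median and highest library, were 881, 16256 and 24798 CPM in PCB 52 males, against 1370.4, 34733 and 69852 CPM in sham males. Female BAT sums were 1135, 17082 and 85047 CPM with PCB 52, against 658, 19053 and 42887 CPM in sham rats. Each of the 4 BAT groups held at least 1 library whose sum was at least 28.1 times the lowest in its group, and PCB 52 and sham overlapped in both sexes.

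SAT sums were 139, 382 and 9322 CPM in PCB 52 males, against 136, 2229 and 19298 CPM in sham males. In females they were 236, 1114 and 37192 CPM with PCB 52, against 804, 4686, 19104, 7671 and 28605 CPM in sham rats 2, 6, 8, 10 and 12. The groups overlapped, and within each SAT group the highest library was 35.6 to 157 times the lowest. VAT sums were 152, 124, 116, 132 and 144 CPM in PCB 52 males 13, 15, 17, 19 and 23, against 123, 143 and 181 CPM in sham males. Female VAT sums were 85.6, 131.5 and 143.6 CPM with PCB 52, against 110, 125 and 1958 CPM in sham rats. One VAT library, sham female 8, stood at 1958 CPM while the other 22 reached at most 181 CPM. A low sum is not a measure of muscle, since some members stayed up where Ckm, muscle creatine kinase, was absent. In VAT of the other sham females the median Ckm was 0 CPM, beside 32.3 CPM of Ldb3, 24.6 CPM of Tpm2 and 22.6 CPM of Tnnt3. Fold ranges of the sum are narrowed by such genes: in SAT of PCB 52 females Ckm alone spanned 13469.7-fold.

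**Figure D1:**
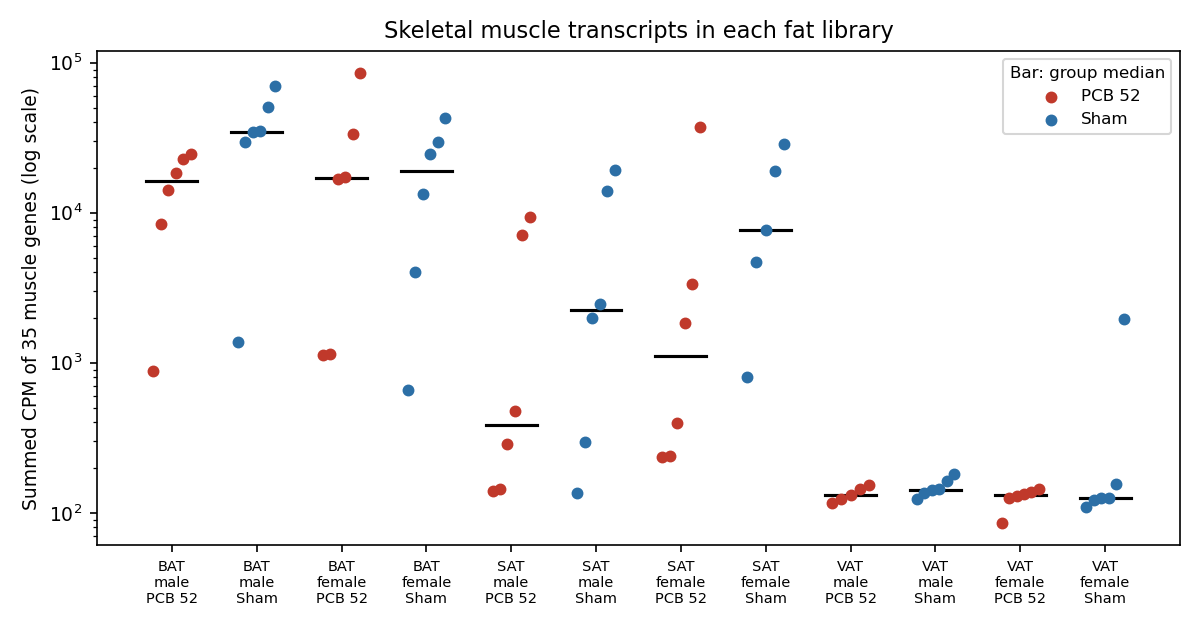
Summed CPM of the 35 muscle genes in each library (log axis), by depot, sex and treatment; each point is 1 library and the bar is the group median. BAT medians lie between 16256 and 34733 CPM and VAT points between 85.6 and 181 CPM, apart from sham female 8 at 1958 CPM.

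Detection followed the same order. In BAT, 27 of the 35 genes were over 3 counts in every library. The 8 others were the slow genes Myh7, Myl2, Tnnt1, Tnni1 and Tnnc1, together with Myh2, the myosin of fast oxidative fibres, the Z-disc protein gene Myot and the titin cap gene Tcap. SAT had 13 genes over 3 counts in every library. VAT had 8: Tnnt3, Tpm2, Atp2a1, Pgam2, Eno3, Myoz1, Ldb3 and Pygm. Of the rest, 9 passed 3 counts in at most 1 VAT library, 1 of them in none. The genes kept in every VAT library encode troponin T, tropomyosin, the calcium pump, enzymes of glycolysis and glycogen breakdown, and Z-disc proteins.

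**Figure D2:**
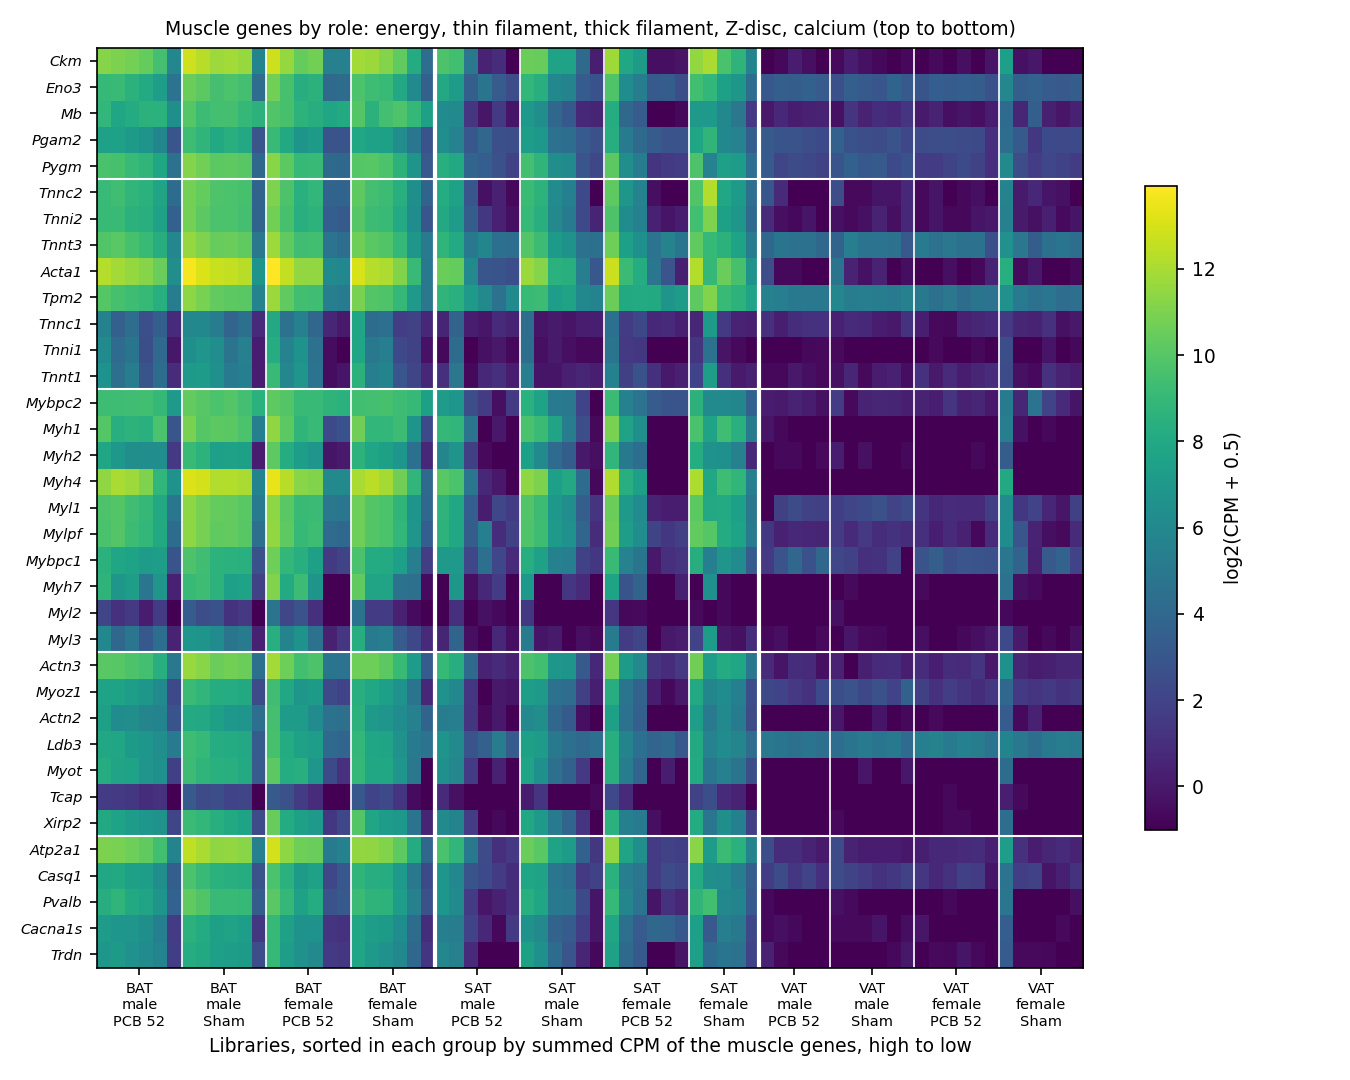
Levels of the 35 muscle genes, log2(CPM + 0.5), with genes in rows grouped by role and libraries in columns, sorted within each group by summed CPM. BAT columns are bright except for the last 1 or 2 of each group, SAT columns fade quickly, and VAT columns are dark except for sham female 8 and the rows of Tnnt3, Tpm2 and Ldb3.

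Energy genes are taken first, and triplets of values below are the lowest, median and highest library of a group of 6. Ckm, which buffers ATP in muscle, served as the guide gene. Ckm in BAT stood at 58.4, 1585 and 2379 CPM in PCB 52 males, against 51.7, 3585 and 7263 CPM in sham males. Female Ckm values in BAT were 44.3, 1535 and 6991 CPM with PCB 52, against 19.95, 1779 and 3730.1 CPM in sham rats. Each group held 1 or 2 libraries at 58.4 CPM or less, and the groups overlapped. Ckm in SAT stood at 0, 15.3 and 859 CPM in PCB 52 males, against 0.681, 192 and 1503 CPM in sham males. Female Ckm values in SAT were 0.265, 68.8 and 3567 CPM with PCB 52, against 52.5, 417, 4231, 810.0 and 2889.5 CPM in sham rats 2, 6, 8, 10 and 12. Male SAT reached 0 in PCB 52 rats and below 1 CPM in sham rats, while the highest library of each SAT group was well above the group's median. Ckm in VAT read 0, 0.256, 0, 0.642 and 0.135 CPM in PCB 52 males 13, 15, 17, 19 and 23, against 0, 0.141 and 0.581 CPM in sham males. Female Ckm values in VAT were 0, 0.0689 and 0.412 CPM with PCB 52, against 0, 0.143 and 171 CPM in sham rats. Apart from sham female 8, Ckm in VAT was near the limit of 3 counts or under it.

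Mb encodes myoglobin, the oxygen store of oxidative muscle. Mb in BAT stood at 85.7, 326 and 471 CPM in PCB 52 males, against 384, 646 and 1003 CPM in sham males. Female Mb values in BAT were 228, 359.7 and 954 CPM with PCB 52, against 179, 592 and 972 CPM in sham rats. The spread of Mb was far narrower than that of Ckm in the same libraries, and no BAT library was without it. Mb in SAT stood at 0.396, 2.21 and 73.6 CPM in PCB 52 males, against 0.953, 11.9 and 123 CPM in sham males. Female Mb values in SAT were 0, 4.73 and 297 CPM with PCB 52, against 2.30, 29.3, 129, 61.8 and 134 CPM in sham rats 2, 6, 8, 10 and 12. SAT overlapped between treatments in both sexes, and libraries low in Ckm were low in Mb. Mb in VAT read 0.520, 0.767, 0.845, 0.642 and 1.08 CPM in PCB 52 males 13, 15, 17, 19 and 23, against 0.309, 1.24 and 1.90 CPM in sham males. Female Mb values in VAT were 0.256, 0.474 and 0.827 CPM with PCB 52, against 0.437, 0.884 and 17.7 CPM in sham rats. Sham females 8 and 4 held the 2 highest VAT values, 17.7 and 11.1 CPM. The other energy genes, Pgam2 and Eno3 of glycolysis and Pygm of glycogen breakdown, varied with Ckm, with mean within-group correlations of 0.997, 0.997 and 0.999 over the 4 BAT groups.

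Acta1, the actin of the thin filament in skeletal muscle, ran parallel to Ckm. Acta1 in BAT stood at 83.5, 2687 and 4943 CPM in PCB 52 males, against 106, 6341 and 13342 CPM in sham males. Female Acta1 values in BAT were 61.3, 2934 and 15558 CPM with PCB 52, against 32.5, 3270.4 and 8407 CPM in sham rats. The same libraries that were low in Ckm were low in Acta1. Acta1 in SAT stood at 5.55, 37.8 and 1515 CPM in PCB 52 males, against 7.76, 351 and 3256 CPM in sham males. Female Acta1 values in SAT were 0.746, 164 and 6813 CPM with PCB 52, against 100.5, 779.6, 490.2, 1473 and 4812 CPM in sham rats 2, 6, 8, 10 and 12. Sham female 8 was the exception, with Acta1 at 490.2 CPM beside Ckm at 4231 CPM. Acta1 in VAT read 5.20, 0, 0, 0.129 and 0.135 CPM in PCB 52 males 13, 15, 17, 19 and 23, against 0, 0.586 and 26.6 CPM in sham males. Female Acta1 values in VAT were 0, 0.0639 and 0.927 CPM with PCB 52, against 0, 0.136 and 324 CPM in sham rats. The male VAT values of 5.20 CPM in PCB 52 male 13 and 26.6 CPM in sham male 11 stood above their groups, and in these 2 libraries Ckm was 0 and 0.154 CPM.

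Among the calcium genes, Pvalb encodes parvalbumin, which binds calcium in fast fibres. Pvalb in BAT stood at 12.6, 241 and 438 CPM in PCB 52 males, against 10.2, 557 and 1232 CPM in sham males. Female Pvalb values in BAT were 6.45, 247 and 1118 CPM with PCB 52, against 6.05, 285 and 579 CPM in sham rats. The spread followed Ckm. Pvalb in SAT stood at 0.437, 2.07 and 116 CPM in PCB 52 males, against 0.408, 30.4 and 333 CPM in sham males. Female Pvalb values in SAT were 0.397, 13.7 and 521 CPM with PCB 52, against 8.47, 52.0, 673, 62.0 and 432 CPM in sham rats 2, 6, 8, 10 and 12. Sham female 8 was highest of the sham females. The VAT values of Pvalb lay between 0 and 0.309 CPM in 22 libraries and at 28.3 CPM in sham female 8. The calcium pump gene Atp2a1, the store protein gene Casq1, the voltage sensor gene Cacna1s and the triadin gene Trdn had mean correlations with Ckm of 0.999, 0.996, 0.999 and 0.995 in BAT.

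At the Z-disc, Actn2 encodes the alpha-actinin that is found in all fibres and in heart. Actn2 in BAT stood at 6.97, 66.0 and 176 CPM in PCB 52 males, against 21.8, 149.8 and 279.9 CPM in sham males. Female Actn2 values in BAT were 21.9, 112 and 738 CPM with PCB 52, against 13.6, 91.9 and 384 CPM in sham rats. Groups overlapped, and PCB 52 female 24 was the highest of all BAT. Actn2 in SAT stood at 0, 1.23 and 40.8 CPM in PCB 52 males, against 0, 12.3 and 81.5 CPM in sham males. Female Actn2 values in SAT were 0, 5.63 and 180.3 CPM with PCB 52, against 5.02, 33.2, 33.0, 71.0 and 158 CPM in sham rats 2, 6, 8, 10 and 12. The range was again wide, with 0 CPM in at least 1 library of 3 of the 4 groups. Actn2 in VAT lay between 0 and 0.773 CPM in 22 libraries and at 9.48 CPM in sham female 8. Actn3, the fast-fibre alpha-actinin, and Myoz1, a calcineurin-binding Z-disc protein of fast fibres, each reached a mean correlation of 0.999 with Ckm in BAT, and Actn2 0.944. Ldb3, Xirp2, Myot and Tcap, which encode further Z-disc and attachment proteins, had 0.962, 0.987, 0.99 and 0.97.

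On the thick filament, Mybpc1 encodes the slow form of myosin-binding protein C. Mybpc1 in BAT stood at 6.97, 181 and 375 CPM in PCB 52 males, against 6.21, 388 and 853 CPM in sham males. Female Mybpc1 values in BAT were 2.42, 257 and 1601 CPM with PCB 52, against 2.78, 222 and 797 CPM in sham rats. PCB 52 and sham overlapped in BAT. Mybpc1 in SAT stood at 1.19, 12.8 and 133 CPM in PCB 52 males, against 2.18, 44.1 and 315 CPM in sham males. Female Mybpc1 values in SAT were 0.530, 14.3 and 523 CPM with PCB 52, against 9.47, 73.5, 43.4, 112 and 318 CPM in sham rats 2, 6, 8, 10 and 12. Each SAT group had a library at 133 CPM or more. Mybpc1 in VAT read 2.34, 6.26, 15.2, 14.8 and 6.61 CPM in PCB 52 males 13, 15, 17, 19 and 23, against 0, 2.49 and 4.01 CPM in sham males. Female Mybpc1 values in VAT were 5.73, 6.60 and 10.8 CPM with PCB 52, against 0.773, 10.3 and 29.0 CPM in sham rats. In VAT this gene was above 3 counts in most libraries of both sexes, unlike Ckm, and the PCB 52 males 17 and 19 were the highest of that group.

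Mybpc2, the fast form of myosin-binding protein C, resembled Mb. Mybpc2 in BAT stood at 131, 624 and 670.1 CPM in PCB 52 males, against 371, 891 and 1282 CPM in sham males. Female Mybpc2 values in BAT were 368, 547 and 1172 CPM with PCB 52, against 181, 655 and 781 CPM in sham rats. No BAT library was under 131 CPM. Mybpc2 in SAT stood at 0.264, 4.07 and 147 CPM in PCB 52 males, against 0, 33.8 and 371 CPM in sham males. Female Mybpc2 values in SAT were 6.72, 17.4 and 586 CPM with PCB 52, against 12.1, 57.2, 71.3, 68.6 and 388 CPM in sham rats 2, 6, 8, 10 and 12. In SAT the gene reached 0 in sham males. Mybpc2 in VAT read 0.650, 0.639, 0.282, 0.899 and 0.539 CPM in PCB 52 males 13, 15, 17, 19 and 23, against 0.145, 0.918 and 2.47 CPM in sham males. Female Mybpc2 values in VAT were 0.515, 0.809 and 1.87 CPM with PCB 52, against 0.384, 2.37 and 35.6 CPM in sham rats. Sham females 8 and 4 were again the highest VAT libraries, at 35.6 and 24.7 CPM.

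The 6 isoform pairs begin with the myosin heavy chains. Myh4 encodes the fastest glycolytic motor of limb muscle and Myh7 the slow motor, shared with the heart. Myh4 in BAT stood at 103, 2458 and 4105 CPM in PCB 52 males, against 52.7, 4755 and 9185 CPM in sham males. Female Myh4 values in BAT were 65.1, 2339 and 11209 CPM with PCB 52, against 16.8, 2755 and 5345 CPM in sham rats. The low libraries were those low in Ckm. Myh4 in SAT stood at 0, 15.1 and 1117 CPM in PCB 52 males, against 0.136, 217 and 2705 CPM in sham males. Female Myh4 values in SAT were 0, 86.3 and 4488 CPM with PCB 52, against 43.2, 453, 238, 614 and 4269 CPM in sham rats 2, 6, 8, 10 and 12. SAT groups overlapped. In VAT, Myh4 was at 0 CPM in 22 libraries, and sham female 8 had 268 CPM. Myh7 in BAT stood at 0.775, 115 and 411 CPM in PCB 52 males, against 3.20, 299 and 620.1 CPM in sham males. Female Myh7 values in BAT were 0, 189.6 and 2162 CPM with PCB 52, against 0.164, 116 and 1250.4 CPM in sham rats. Myh7 was at 3.20 CPM or less in the libraries poorest in muscle. Myh7 in SAT stood at 0, 0.711 and 119 CPM in PCB 52 males, against 0, 0.629 and 126 CPM in sham males. Female Myh7 values in SAT were 0, 3.75 and 201 CPM with PCB 52, against 0, 0, 87.9, 0.119 and 0 CPM in sham rats 2, 6, 8, 10 and 12. In SAT, Myh7 was high in few libraries: PCB 52 female 18 and PCB 52 male 19 held 201 and 119 CPM, and sham female 8 and sham male 3 held 87.9 and 126 CPM. The VAT values of Myh7 lay between 0 and 0.286 CPM in 22 libraries and at 24.5 CPM in sham female 8.

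The regulatory light chain of fast fibres is Mylpf, listed in RefSeq as Myl11, and that of slow fibres and heart ventricle is Myl2. Mylpf in BAT stood at 18.8, 531 and 968 CPM in PCB 52 males, against 22.03, 1245 and 2670.4 CPM in sham males. Female Mylpf values in BAT were 15.9, 566 and 2874 CPM with PCB 52, against 10.5, 656 and 1607 CPM in sham rats. The groups overlapped. Mylpf in SAT stood at 1.45, 26.8 and 408 CPM in PCB 52 males, against 1.36, 112 and 887 CPM in sham males. Female Mylpf values in SAT were 2.14, 40.8 and 1631 CPM with PCB 52, against 33.0, 201, 999.9, 289.7 and 1304 CPM in sham rats 2, 6, 8, 10 and 12. Every SAT library kept some Mylpf. Mylpf in VAT lay between 0.128 and 7.01 CPM in 22 libraries and at 75.0 CPM in sham female 8. Myl2 in BAT stood at 0, 2.03 and 3.82 CPM in PCB 52 males, against 0, 3.75 and 9.66 CPM in sham males. Female Myl2 values in BAT were 0, 2.82 and 25.97 CPM with PCB 52, against 0, 1.65 and 23.4 CPM in sham rats. Myl2 reached 0 in each BAT group. Myl2 in SAT stood at 0, 0.0659 and 1.64 CPM in PCB 52 males, against 0, 0 and 2.15 CPM in sham males. Female Myl2 values in SAT were 0, 0.0649 and 2.09 CPM with PCB 52, against 0, 0, 0, 0.119 and 0.143 CPM in sham rats 2, 6, 8, 10 and 12. Most SAT libraries were under 3 counts. In VAT, Myl2 was between 0 and 0.309 CPM in 22 libraries, and sham female 8 had 0.135 CPM.

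The essential light chain genes are Myl1 in fast fibres and Myl3 in slow fibres and ventricle. Myl1 in BAT stood at 28.5, 573 and 969.7 CPM in PCB 52 males, against 34.5, 1345 and 2728 CPM in sham males. Female Myl1 values in BAT were 28.6, 546 and 2717 CPM with PCB 52, against 15.5, 630.5 and 1598 CPM in sham rats. PCB 52 male 23 and sham male 7 were far below their groups. Myl1 in SAT stood at 0.583, 7.30 and 411 CPM in PCB 52 males, against 1.91, 100.1 and 955 CPM in sham males. Female Myl1 values in SAT were 0.622, 37.2 and 1498 CPM with PCB 52, against 29.1, 168, 261, 280.1 and 1133 CPM in sham rats 2, 6, 8, 10 and 12. SAT overlapped between treatments. Myl1 in VAT read 0, 3.20, 3.10, 4.88 and 3.10 CPM in PCB 52 males 13, 15, 17, 19 and 23, against 2.93, 4.22 and 5.90 CPM in sham males. Female Myl1 values in VAT were 1.10, 1.32 and 2.78 CPM with PCB 52, against 0.437, 2.61 and 73.1 CPM in sham rats. The library labelled PCB 52 male 13 had no Myl1 count, whereas the other male VAT libraries held 2.93 CPM or more. Myl3 in BAT stood at 0.930, 18.4 and 62.6 CPM in PCB 52 males, against 0.801, 55.4 and 114 CPM in sham males. Female Myl3 values in BAT were 0.806, 38.02 and 341 CPM with PCB 52, against 1.31, 21.9 and 314 CPM in sham rats. PCB 52 and sham overlapped. Myl3 in SAT stood at 0, 0.608 and 13.7 CPM in PCB 52 males, against 0, 0.331 and 35.8 CPM in sham males. Female Myl3 values in SAT were 0, 1.61 and 35.4 CPM with PCB 52, against 1.44, 0.282, 153, 0.477 and 3.73 CPM in sham rats 2, 6, 8, 10 and 12. Sham female 8, at 153 CPM, was above every other SAT library. The VAT values of Myl3 lay between 0 and 0.572 CPM in 22 libraries and at 4.47 CPM in sham female 8.

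Troponin T, which ties the complex to tropomyosin, is Tnnt3 in fast fibres and Tnnt1 in slow fibres. Tnnt3 in BAT stood at 60.3, 646 and 1113 CPM in PCB 52 males, against 29.8, 1442 and 2993 CPM in sham males. Female Tnnt3 values in BAT were 20.7, 670.0 and 3375 CPM with PCB 52, against 34.7, 703 and 1574 CPM in sham rats. The groups overlapped. Tnnt3 in SAT stood at 20.7, 44.8 and 436 CPM in PCB 52 males, against 22.2, 120.2 and 989 CPM in sham males. Female Tnnt3 values in SAT were 25.6, 70.6 and 1609 CPM with PCB 52, against 38.8, 204, 502, 378 and 1239 CPM in sham rats 2, 6, 8, 10 and 12. No SAT library was under 20.7 CPM. Tnnt3 in VAT read 15.1, 22.9, 15.9, 23.8 and 27.4 CPM in PCB 52 males 13, 15, 17, 19 and 23, against 8.56, 24.6 and 41.8 CPM in sham males. Female Tnnt3 values in VAT were 5.87, 24.1 and 34.3 CPM with PCB 52, against 10.2, 24.3 and 92.0 CPM in sham rats. Tnnt3 was the troponin kept in every VAT library. Tnnt1 in BAT stood at 1.40, 20.6 and 99.1 CPM in PCB 52 males, against 0.601, 67.3 and 144 CPM in sham males. Female Tnnt1 values in BAT were 0.201, 42.5 and 537 CPM with PCB 52, against 1.15, 24.7 and 389 CPM in sham rats. Highest values were again in PCB 52 female 24 and sham female 6. Tnnt1 in SAT stood at 0.128, 1.37 and 29.3 CPM in PCB 52 males, against 0.408, 0.723 and 42.0 CPM in sham males. Female Tnnt1 values in SAT were 0.534, 2.35 and 46.4 CPM with PCB 52, against 0.718, 0.563, 155, 1.55 and 3.58 CPM in sham rats 2, 6, 8, 10 and 12. Of the SAT libraries, sham female 8 was highest at 155 CPM. Tnnt1 in VAT lay between 0.130 and 1.67 CPM in 22 libraries and at 4.88 CPM in sham female 8.

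Troponin I, which blocks the contraction until calcium arrives, is Tnni2 in fast fibres and Tnni1 in slow fibres. Tnni2 in BAT stood at 11.6, 353 and 561 CPM in PCB 52 males, against 13.4, 824 and 1780.5 CPM in sham males. Female Tnni2 values in BAT were 8.82, 369.7 and 1721 CPM with PCB 52, against 7.52, 407 and 1010.4 CPM in sham rats. BAT groups overlapped. Tnni2 in SAT stood at 0.264, 6.03 and 256 CPM in PCB 52 males, against 0.953, 51.3 and 508 CPM in sham males. Female Tnni2 values in SAT were 0.401, 22.8 and 877 CPM with PCB 52, against 16.8, 117, 2091, 180.4 and 679 CPM in sham rats 2, 6, 8, 10 and 12. Sham female 8 held 2091 CPM, the highest Tnni2 of all SAT. In VAT, Tnni2 was between 0 and 1.3 CPM in 22 libraries, and sham female 8 had 45.5 CPM. Tnni1 in BAT stood at 0.465, 17.3 and 69.7 CPM in PCB 52 males, against 0.601, 62.3 and 108 CPM in sham males. Female Tnni1 values in BAT were 0, 36.2 and 296 CPM with PCB 52, against 0.327, 18.6 and 221 CPM in sham rats. The lowest values were at or under the limit of 3 counts. Tnni1 in SAT stood at 0, 0.214 and 19.1 CPM in PCB 52 males, against 0.126, 0.264 and 20.9 CPM in sham males. Female Tnni1 values in SAT were 0, 1.11 and 26.3 CPM with PCB 52, against 0, 0.141, 24.6, 0.358 and 1.86 CPM in sham rats 2, 6, 8, 10 and 12. At most 1 library of each male SAT group was above 0.544 CPM. The VAT values of Tnni1 lay between 0 and 0.381 CPM in 22 libraries and at 5.42 CPM in sham female 8.

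Troponin C, the calcium sensor, is Tnnc2 in fast fibres and Tnnc1 in slow fibres and heart. Tnnc2 in BAT stood at 18.6, 409.9 and 657 CPM in PCB 52 males, against 13.6, 868 and 1773 CPM in sham males. Female Tnnc2 values in BAT were 13.1, 412 and 2079.8 CPM with PCB 52, against 13.7, 467 and 1211 CPM in sham rats. BAT groups overlapped. Tnnc2 in SAT stood at 0.132, 4.11 and 297 CPM in PCB 52 males, against 0, 58.8 and 567 CPM in sham males. Female Tnnc2 values in SAT were 0, 25.8 and 1185 CPM with PCB 52, against 21.2, 137, 4798, 250.1 and 953 CPM in sham rats 2, 6, 8, 10 and 12. The 4798 CPM of sham female 8 was above the 1185 CPM of PCB 52 female 18, the next highest. Tnnc2 in VAT read 7.41, 0, 0, 0 and 1.21 CPM in PCB 52 males 13, 15, 17, 19 and 23, against 0.145, 0.392 and 5.25 CPM in sham males. Female Tnnc2 values in VAT were 0, 0.135 and 0.413 CPM with PCB 52, against 0, 0.477 and 50.4 CPM in sham rats. Among male VAT libraries, PCB 52 male 13 and sham male 11 were highest. Tnnc1 in BAT stood at 1.24, 11.1 and 44.7 CPM in PCB 52 males, against 1.20, 30.2 and 62.9 CPM in sham males. Female Tnnc1 values in BAT were 0.575, 19.1 and 254 CPM with PCB 52, against 1.15, 10.9 and 216 CPM in sham rats. The high libraries were those high in Tnnt1 and Tnni1. Tnnc1 in SAT stood at 0.437, 0.938 and 12.8 CPM in PCB 52 males, against 0.383, 0.587 and 19.8 CPM in sham males. Female Tnnc1 values in SAT were 0.746, 1.90 and 21.6 CPM with PCB 52, against 0.718, 0.845, 141, 2.39 and 1.00 CPM in sham rats 2, 6, 8, 10 and 12. Sham female 8 was highest in SAT, at 141 CPM. Tnnc1 in VAT lay between 0.133 and 1.78 CPM in 22 libraries and at 2.44 CPM in sham female 8.

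The members varied together from library to library. In BAT of PCB 52 males, rat 23 was the lowest for all 35 genes, and rats 13 and 21 the highest for 23 and 11. In BAT of sham males, rat 7 was the lowest for all 35 and rat 5 the highest for 31; rat 9 was the highest for the slow genes Myh7, Tnnt1, Tnni1 and Tnnc1. In BAT of PCB 52 females, rat 24 was the highest for all 35. In BAT of sham females, rat 4 was the lowest for all 35 and rat 6 the highest for 32. SAT showed the same for PCB 52 female 18, highest for all 35, and sham male 3, highest for 32. Among SAT of sham females the top place was split, with rat 12 highest for 23 and rat 8 for 12.

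Likeness to Ckm was measured as Pearson's r on log2 CPM within each BAT group, averaged over the 4 groups (24 libraries), and is a description without a test, since libraries share depth and muscle content. Atp2a1, Actn3, Pygm, Tnni2, Myoz1 and Cacna1s were the closest members, each at 0.999. The lowest were Mb at 0.822, Myl2 at 0.88, Tnnc1 at 0.885, Tnnt1 at 0.915, Myl3 at 0.92, Tnni1 at 0.933, Mybpc2 at 0.943 and Actn2 at 0.944. In SAT the slow genes were looser still, from 0.518 for Myl2 to 0.703 for Tnni1, while Mb was at 0.962 and Tnnc2 at 0.989. Fat markers did not share the pattern: Ucp1 had a mean of -0.071, Cidea -0.098 and Adipoq -0.199 in BAT, and the smooth muscle gene Myh11 -0.109. These means cover unlike groups, and the lowest r in a single BAT group was -0.695, -0.538, -0.786 and -0.725 in the same order. Of the 11177 genes kept for this measure, the 10 genes outside the list most like Ckm were Myom2, a protein of the M-band, and Hjv at 0.998; Mylk2, the skeletal myosin light chain kinase, Dhrs7c, Hrc, a calcium-binding protein of the reticulum, and Jsrp1 at 0.997; Cox6a2, a muscle form of cytochrome oxidase, at 0.996; and Art1, Klhl31 and Ankrd23 at 0.995.

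Mb and Mybpc2 kept high levels in BAT where the other members were near their lowest. BAT of PCB 52 female 20 had 44.3 CPM of Ckm beside 277 CPM of Mb and 368 CPM of Mybpc2. In BAT of PCB 52 female 18, Ckm was 44.9 CPM, Mb 228 CPM and Mybpc2 422 CPM. In sham male 7 the values were 51.7 CPM for Ckm, 384 CPM for Mb and 371 CPM for Mybpc2. Sham female 4 had 19.95 CPM of Ckm, 179 CPM of Mb and 181 CPM of Mybpc2. PCB 52 male 23, with Ckm at 58.4 CPM, was lower in both, at 85.7 CPM of Mb and 131 CPM of Mybpc2, and its Ucp1 was the lowest of the male BAT libraries at 2892 CPM. The count ratio of Mb to Ckm was 6.25 in PCB 52 female 20, 5.09 in PCB 52 female 18, 7.44 in sham male 7 and 8.95 in sham female 4. SAT libraries with at least 100 counts of Ckm had ratios of 0.0304 to 0.105, and the ratio was not taken in the SAT libraries poorer in Ckm. VAT of sham female 4, whose Ucp1 of 337.7 CPM was the highest in VAT, held 11.1 CPM of Mb and 24.7 CPM of Mybpc2 with Ckm at 0.464 CPM. In this library Ucp1, Mb and Mybpc2 were high together, and the part of brown adipocytes in the Mb and Mybpc2 levels was not tested.

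**Figure D3:**
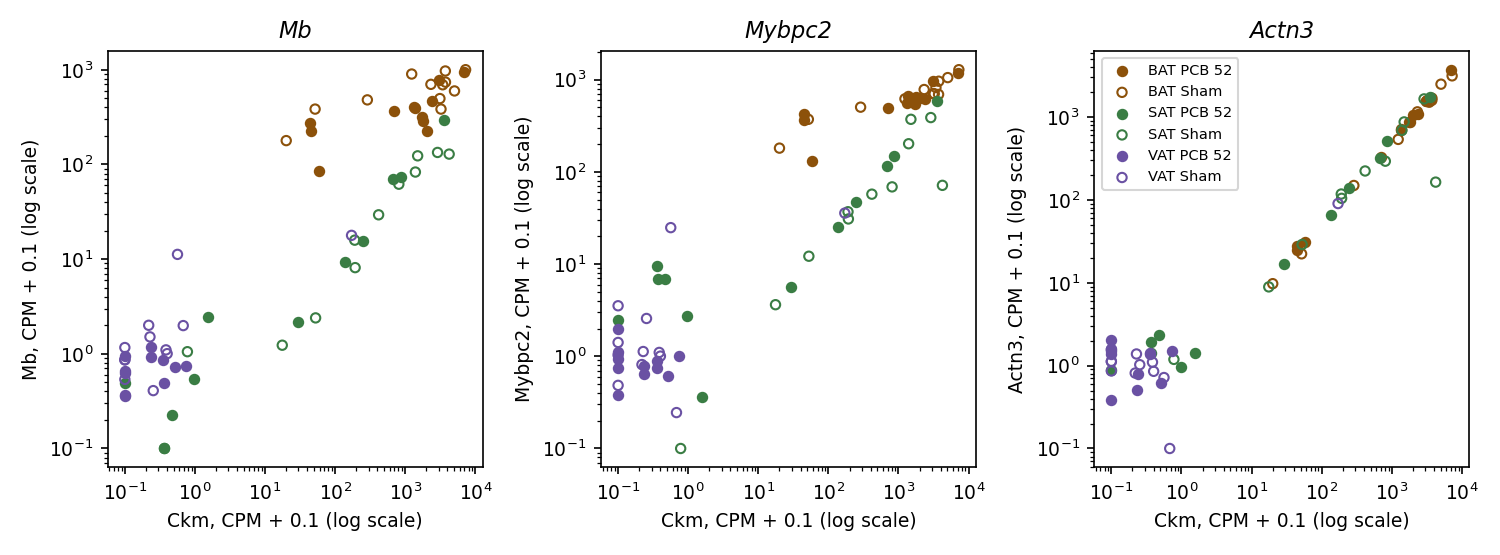
Mb, Mybpc2 and Actn3 against Ckm, CPM + 0.1 on log axes; each point is 1 library, filled for PCB 52 and open for sham, coloured by depot. BAT points of Mb and Mybpc2 stay at 85.7 CPM or higher down to the lowest Ckm values, whereas Actn3 follows Ckm along 1 line except in SAT of sham female 8.

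The mix of slow and fast forms differed between libraries far beyond counting error. The slow share is the slow counts as a percentage of all counts of the 6 pairs, a share of counts and not of molecules, with a 95% Wilson interval that covers counting error only. BAT shares were 1.27%, 3.26% and 9.605% in PCB 52 males, against 2.53%, 4.04% and 6.21% in sham males. Female BAT shares were 1.35%, 4.02% and 16.45% with PCB 52, against 1.355%, 3.87% and 17.7% in sham rats. The 1.35% of PCB 52 female 18 rests on slow forms at 2.216 CPM (interval 0.754% to 2.40%). The BAT medians also take in other libraries poor in muscle. Groups overlapped in both sexes, with the largest shares in PCB 52 female 22 (interval 16.02% to 16.9%), PCB 52 female 24 (12.96% to 13.3%) and sham female 6 (17.4% to 17.96%).

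SAT shares were 0.125%, 4.99% and 19.8% in PCB 52 males, against 0.0325%, 2.08% and 5.80% in sham males. In females they were 1.72%, 4.76% and 8.21% with PCB 52, against 1.55%, 0.143%, 5.94%, 0.251% and 0.108% in sham rats 2, 6, 8, 10 and 12. The highest SAT share, 19.8%, was in PCB 52 male 21, whose summed level was 143.0 CPM, and the next, 9.26%, in PCB 52 male 19 with 7064.8 CPM. The fast forms summed to 28.86 CPM in PCB 52 male 21. VAT shares ran from 2.96% in PCB 52 female 18 to 22.9% in PCB 52 female 20, with summed levels of 136.5 and 85.61 CPM. Shares in libraries this poor in muscle are not read as a mix of fibres, and the SAT medians take in such libraries. Several SAT libraries held almost only fast forms: PCB 52 male 15 at 0.125%, sham males 1 and 9 at 0.288% and 0.0325%, and sham females 6, 10 and 12 at 0.143%, 0.251% and 0.108%. Others held a clear slow share: PCB 52 male 19 at 9.26% (8.80% to 9.75%), PCB 52 females 14, 18 and 20 at 5.46%, 2.86% and 1.72%, sham male 3 at 3.60% and sham female 8 at 5.94% (5.77% to 6.12%). The treatment groups overlapped. The myosin heavy chains varied too. Of the counts of Myh1, Myh2, Myh4 and Myh7 together, Myh4 made up 30.8% and Myh1 56.3% in BAT of PCB 52 male 19, and Myh1 43.4% in BAT of sham male 7. The 4 genes are close in sequence, and how reads were split between them is not given, so these shares are uncertain.

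**Figure D4:**
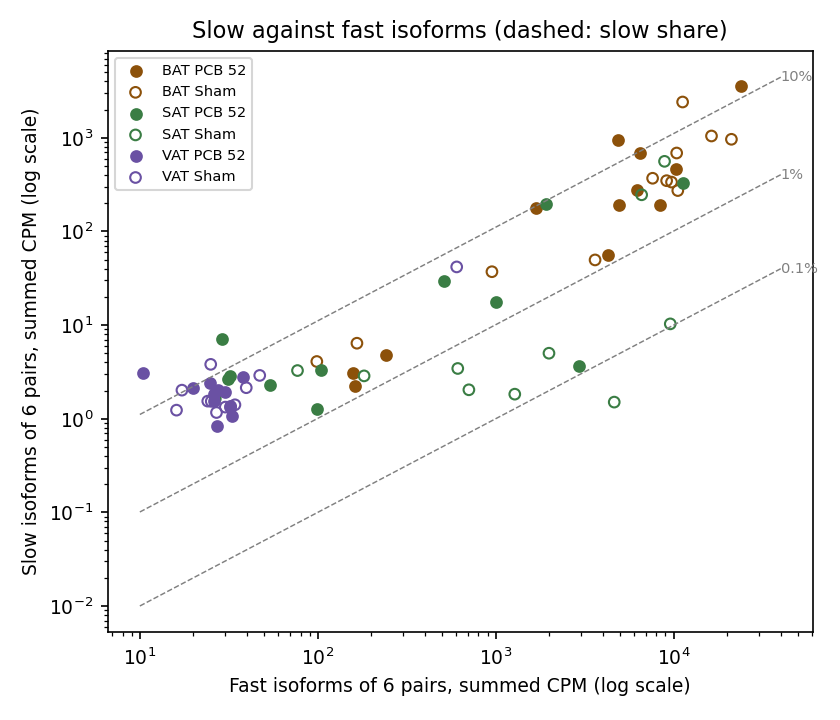
Summed CPM of the 6 slow forms against the 6 fast forms, both log axes, with 1 point per library and dashed lines at slow shares of 0.1%, 1% and 10%. BAT points lie between shares of 1.27% and 17.7%, and several SAT libraries lie near the 0.1% line.

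In SAT of sham female 8 the muscle genes did not keep the ratios of the other libraries. Its count ratio of Acta1 to Ckm was 0.116, against 1.67 to 2.40 in the other SAT libraries with at least 100 counts of Ckm, and its Tnnc2 to Ckm ratio was 1.13, against 0.227 to 0.470. The levels behind them were 490.2 CPM of Acta1, 4231 CPM of Ckm, 4798 CPM of Tnnc2 and 2091 CPM of Tnni2. The summed adipocyte markers of this library were 40992 CPM, the highest of all SAT. Its summed smooth muscle markers were the lowest of its group, at 463 CPM. Their part in the ratios was not tested. The female SAT fold change of Tnnc1, PCB 52 over sham, was -3.45 on the log2 scale with this library and 2.06 without it, neither past the threshold.

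VAT of sham female 8 exceeded the other 5 sham females for all 35 members. Ckm was at 171 CPM, Acta1 at 324 CPM, Myh4 at 268 CPM, Atp2a1 at 162 CPM and Actn3 at 90.2 CPM. The slow forms were also present, with Myh7 at 24.5 CPM and Tnni1 at 5.42 CPM. Brown fat genes were high in the same library, Ucp1 at 229.5 CPM and Cidea at 84.8 CPM, but Ucp1 was higher in sham female 4, whose Ckm was 0.464 CPM. The 2 Y-linked genes were at 1.35 CPM (Ddx3y) and 2.30 CPM (Eif2s3y). Their part in the muscle levels was not tested.

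No member passed the threshold for PCB 52 over sham in any depot or sex. The test was the quasi-likelihood F test of edgeR, with p-values adjusted by Benjamini-Hochberg over all genes tested and a threshold of 0.05. Fold changes are log2 of PCB 52 over sham with standard errors (SE), and means are CPM on TMM-adjusted library sizes with SD. In every one of these comparisons the PCB 52 and sham values of each member tested overlapped, both on this scale and on plain CPM. Nearly all genes did so: on plain CPM the share without overlap was 0.0524% in male SAT to 0.87% in male BAT. Over both sexes it was 0% in each depot. The median fold change of all genes lay within 0.1 of 0 in each comparison, so the fold changes below are read as they stand.

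In male BAT all 35 genes were tested and all had fold changes under 0, from -1.59 for Pgam2 to -0.77 for Mybpc2, with a median of -1.39. None was called, as was 0% of the 10687 genes tested. At an unadjusted p under 0.05 there were 2 members, Mb and Tcap, where 9.86% of all genes were. Mb averaged 301.1 ± 139.3 CPM in PCB 52 males and 676.5 ± 247.8 CPM in sham males (SD, n = 6 each), a log2 fold change of -1.16 (SE 0.363, edgeR adjusted p = 0.441). Ckm averaged 1359.3 ± 840.7 CPM in PCB 52 males and 3919 ± 2561 CPM in sham males, a log2 fold change of -1.52 (SE 0.896, edgeR adjusted p = 0.552). Tcap, the titin cap, had -1.46 (edgeR adjusted p = 0.503). The median of the 35 genes ran from -1.66 without sham male 7 to -1.07 without sham male 5.

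In female BAT 34 of the 35 fold changes were above 0, with a median of 0.36, and Mb was the exception at -0.36 (SE 0.448). No member was called, as was 0% of 10686 genes, and 0 members were at an unadjusted p under 0.05, where 3.63% of all genes were. DESeq2 and limma voom also called 0 and had 0 at an unadjusted p under 0.05. Ckm averaged 2083 ± 2327 CPM in PCB 52 females and 1819.8 ± 1534 CPM in sham females (SD, n = 6 each), a log2 fold change of 0.20 (SE 1.15, edgeR adjusted p = 0.9995). The median turned to -0.49 without PCB 52 female 24, the library of lowest Ucp1, and reached 0.86 without sham female 6.

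Over both sexes in BAT the median of the 35 genes was -0.50 and the member of lowest p was Mb, as in male BAT, at 391.7 ± 228.0 CPM with PCB 52 and 645.9 ± 278.8 CPM in sham rats (SD, n = 12 each). Its log2 fold change was -0.76 (SE 0.310, edgeR adjusted p = 0.364). No member was called, against 0.00906% of all genes, and Mb alone was at an unadjusted p under 0.05, against 11% of all genes. The interaction of sex and treatment, the male effect minus the female effect, had a median of -1.77 in BAT. It called 0 members and 0% of all genes. By edgeR 0 members were at an unadjusted p under 0.05, as by DESeq2 and limma voom, where 2.41% of all genes were. Without PCB 52 female 24 the median over both sexes was -0.97 and that of the interaction -0.91, each with 0 members called.

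In male SAT 28 genes passed the filter on low counts, and all their fold changes were under 0, from -1.76 for Xirp2 to -0.60 for Tpm2, with a median of -1.10. None was called (0% of all 11459 genes), and by edgeR, DESeq2 and limma voom 0 were at an unadjusted p under 0.05, against 1.44% of all genes by edgeR. Ckm averaged 255.9 ± 383.2 CPM in PCB 52 males and 536.1 ± 668.9 CPM in sham males (SD, n = 6 each), a log2 fold change of -1.07 (SE 1.80, edgeR adjusted p = 1). The median ran from -1.93 without PCB 52 male 15 to -0.41 without sham male 3. Female SAT had 32 genes tested, all under 0, from -3.45 for Tnnc1 to -0.07 for Cacna1s, with a median of -0.68. Ckm averaged 645.5 ± 1407.5 CPM in 6 PCB 52 females and 2332 ± 3166 CPM in 5 sham females, a log2 fold change of -1.91 (SE 1.96, edgeR adjusted p = 0.8999). The female SAT fit called 0 members and 0% of 11824 genes. At an unadjusted p under 0.05 edgeR had 0 members and 5.12% of all genes, DESeq2 1 member and 3.93% of all genes, and limma voom 7 members and 1.26% of all genes. Without sham female 8, Ckm had -0.61 (edgeR adjusted p = 0.9997) and the median was -0.45. That median was -3.47 without PCB 52 female 18 and -0.01 without sham female 12. The medians describe the genes tested and not the whole list.

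Both sexes together gave a SAT median of -0.95 over 33 genes. That fit called 0 members and 0% of all genes, with 0 members at an unadjusted p under 0.05 by edgeR, 2 by DESeq2 and 13 by limma voom. Of all genes, 2.74% were by edgeR, 2.31% by DESeq2 and 1.09% by limma voom. The sex interaction in SAT had a median of -0.35, or 1.28 by limma voom, and called 0 members and 0% of all genes. By edgeR, DESeq2 and limma voom 0 members were at an unadjusted p under 0.05, and 6.51% of all genes were by edgeR. Without sham female 8 the median over both sexes was -0.80 and that of the interaction -0.69, each with 0 members called.

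VAT left few members to test. In male VAT 12 passed the filter, with a median of -0.11, and 0 were called (0% of 11357 genes). The 3 at an unadjusted p under 0.05, against 6.3% of all genes, were Mybpc1, Myoz1 and Pygm. Mybpc1 averaged 9.16 ± 5.95 CPM in 5 PCB 52 males and 2.27 ± 1.42 CPM in 6 sham males, a log2 fold change of 2.00 (SE 0.684, edgeR adjusted p = 0.747). Myoz1 had -1.01 and Pygm -0.64. Without the library labelled PCB 52 male 13 the median was -0.12 and again 0 members were called. Female VAT had 10 members tested, a median of -0.84 and 0 called (0% of 11143 genes). Myl1, Pygm and Eno3 were at an unadjusted p under 0.05, against 9.57% of all genes, with fold changes of -2.98, -2.16 and -0.98. Myl1 averaged 1.68 ± 0.764 CPM in PCB 52 females and 13.3 ± 27.6 CPM in sham females (SD, n = 6 each; edgeR adjusted p = 0.479). Without sham female 8 the female VAT median was 0.00068.

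Over both sexes in VAT 16 members were tested, 0 were called (0% of all genes) and 7 were at an unadjusted p under 0.05, against 6.89% of all genes. These were Mybpc2, Mb, Myoz1, Pygm, Mylpf, Myl1 and Actn3, with fold changes from -2.43 for Mybpc2 to -0.99 for Myoz1, and sham female 8 is the highest library of its group for each. The sex interaction in VAT called 0 members (0% of all genes), while 6 had an unadjusted p under 0.05, against 10.7% of all genes. Atp2a1 led them with a difference of 5.11 (SE 1.77, edgeR adjusted p = 0.405). Without sham female 8, 14 members were tested over both sexes, 1 was at an unadjusted p under 0.05 and the median was -0.03, against -0.92 with it. The Atp2a1 difference was then 0.52 (edgeR adjusted p = 0.831). Without the library labelled PCB 52 male 13 the median over both sexes was -0.94 and the Atp2a1 difference 4.33, and 0 members were called in these fits.

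**Figure D5:**
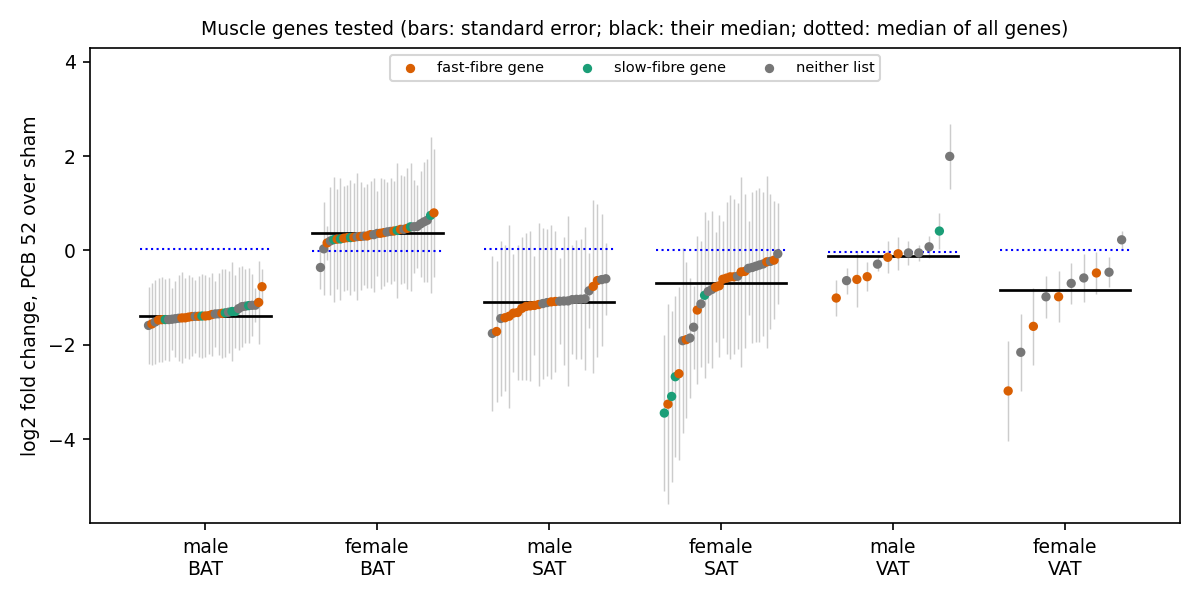
Log2 fold changes of PCB 52 over sham for each muscle gene tested, by sex and depot; points are genes coloured by fibre list, grey bars their standard errors, black lines the median of the muscle genes and dotted lines the median of all genes. Medians are -1.39 and 0.36 in male and female BAT and -1.10 and -0.68 in male and female SAT, and no gene passed the threshold.

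Sham rats of the 2 sexes did not differ past the threshold in any member either. Male over female BAT had a median log2 difference of 0.97 over 35 genes, with 0 called (0.0652% of all genes) and, by edgeR, DESeq2 and limma voom, 0 at an unadjusted p under 0.05 (6.78% of all genes by edgeR). Ckm averaged 3832 ± 2472 CPM in sham males and 1799 ± 1514 CPM in sham females (SD, n = 6 each), a log2 difference of 1.11 (SE 1.06, edgeR adjusted p = 0.880). SAT had a median of -0.53 over 28 genes, 0 called (1.09% of all genes) and 1 at an unadjusted p under 0.05 (19.6% of all genes). That gene was Tpm2, a tropomyosin, at 271.2 ± 231.8 CPM in 6 sham males and 1087 ± 1348 CPM in 5 sham females, a log2 difference of -2.07 (SE 0.855, edgeR adjusted p = 0.215). Without SAT of sham female 8 it was -0.88 (edgeR adjusted p = 0.482). The SAT median turned to 0.27 without sham female 12 and was -1.25 without sham male 3. VAT had 11 genes tested, a median of -0.94, 0 called (11.5% of all genes) and 4 at an unadjusted p under 0.05 (27.7% of all genes). Mybpc1 came nearest, at 2.175 ± 1.353 CPM in sham males and 11.3 ± 9.90 CPM in sham females, a log2 difference of -2.37 (SE 0.727, edgeR adjusted p = 0.051), and DESeq2 called it, as did edgeR without sham female 4 or without sham male 11. Without sham female 8 the VAT median was 0.49 and 3 members were called, a count given without the share of all genes.

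Among sham rats most members differed between depots. A member that passed the filter only through the richer depot had to differ, so the counts here are descriptions. The shares of all genes higher belong to the edgeR fit of all libraries without a term for the rat. Counts of members called under other fits are given without such a share. Overlap is given on TMM-adjusted CPM, and on plain CPM where its count differs. BAT over VAT was higher for 35 of 35 members in males (26.5% of all genes higher) and for 34 of 34 tested in females (14.3%). In males the median log2 difference was 10.02, also with the 3 genes at 0 in VAT set to their lower bounds. Ckm averaged 4271 ± 2774 CPM in male BAT and 0.189 ± 0.177 CPM in male VAT (SD, n = 6 each), with 0 to 4 counts in each VAT library, so the fitted log2 difference of 14.42 is a description. Myh1, Myh4 and Tcap were at 0 in all male sham VAT libraries. Against a floor of 3 counts over the group, they were at least 14892-, 78813- and 66.5-fold higher in BAT. In 27 of the 35 members the 2 male groups did not overlap, against 30.4% of all genes, and on plain CPM in 25, against 36.9%. Female BAT and VAT had a median difference of 5.94, and 8.74 without sham female 8, with 3 members not overlapping, Actn2, Mb and Mybpc2, against 22.8% of all genes. Female Ckm had 6.20 (SE 1.98, edgeR adjusted p = 0.0287), and 10.99 with a term for the rat (edgeR adjusted p = 0.00491). Without that term it was no longer called without VAT of sham female 6 or of sham female 10. By limma voom 24 of 35 members were called in males, Ckm not among them, and 21 of 34 in females.

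SAT over VAT was higher for 30 of 35 members in males (12.4% of all genes higher), all but Myl2, Tnnt1, Tnnc1, Tcap and Ldb3, with a median of 6.80. Ckm averaged 529.2 ± 660.4 CPM in male SAT and 0.189 ± 0.177 CPM in male VAT (SD, n = 6 each), and the fitted log2 difference of 11.34 is again a description. On counts pooled over the group, Myh1 and Myh4 were at least 3696.0- and 11886-fold higher in SAT. The same bound for Tcap was 6.25-fold, which leaves out the spread between rats, and Tcap was not called. In males 7 members did not overlap, Ckm, Myh1, Myh4, Tnni1, Tpm2, Pvalb and Cacna1s, against 6.26% of all genes. On plain CPM Tnni1 and Tpm2 overlapped, which left 5, against 8.9% of all genes. Females had 29 of 34 higher (23.2% of all genes), all but Acta1, Myh4, Myh7, Tnni1 and Ldb3, with a median of 4.70. Tpm2, the only member whose female groups did not overlap (25.8% of all genes), averaged 1081 ± 1358 CPM in 5 SAT and 34.9 ± 25.3 CPM in 6 VAT libraries, a log2 difference of 4.99 (SE 0.963, edgeR adjusted p = 0.0006496). The female median was 8.06 without VAT of sham female 8 and 3.77 without SAT of sham female 12, and without SAT of sham female 8 it was 4.40 with 25 members called. With a term for the rat, Acta1 and Myh4 were also called in females, and Myl3, Tnnt1, Tnnc1, Casq1 and Pygm were not. In males Myl3 and Myoz1 were then not called. By limma voom 3 of 35 members were called in males and 18 of 34 in females.

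BAT over SAT gave many calls in males and few in females, and the difference between the sexes was not tested. In males 29 of 35 members were higher (28% of all genes), all but Acta1, Myh1, Myh4, Tnnc2, Xirp2 and Trdn, with a median of 2.82. Mb averaged 739.0 ± 269.3 CPM in male BAT and 37.2 ± 48.3 CPM in male SAT (SD, n = 6 each), a log2 difference of 4.38 (SE 0.880, edgeR adjusted p = 0.000501). Mb and Mybpc2 were the 2 members without overlap, against 31.5% of all genes, and on plain CPM Mb alone, against 33.3%. In males Ckm had 3.09 (SE 1.13, edgeR adjusted p = 0.0277). In females 2 of 34 members were higher (20.3% of all genes), Mb with 3.07 (SE 1.03, edgeR adjusted p = 0.0217) and Mybpc2 with 2.53 (SE 0.994, edgeR adjusted p = 0.0446). Female Ckm averaged 1972.8 ± 1670.4 CPM in 6 BAT and 2039.7 ± 2786.4 CPM in 5 SAT libraries, a log2 difference of -0.08 (SE 1.65), and 0 members were without overlap (29% of all genes), or 1, Mb, on plain CPM (27.8% of all genes). The male count was 16 without BAT of sham male 5 and 18 and 17 without SAT of sham males 1 and 11, and Ckm was then no longer called. The female count was 7 without SAT of sham female 8. It was 1 without BAT of any one of sham females 2, 6, 8, 10 and 12, or without SAT of any one of sham females 2, 6 and 10, where Mb was the gene still called. A term for the rat gave 4 calls in females, with Myh7 and Tnni1 added, and 31 in males, with Xirp2 and Trdn added. Female Ckm then had 2.19 (edgeR adjusted p = 0.359).

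Other muscle genes, from lists outside the 38, were described in the same way. Of 75 further genes of the muscle fibre, 64 had counts. They include Cox8b, also listed as a brown adipocyte marker, and Tnnt2, also in the heart list, so counts for this list are not of skeletal muscle alone. Cox8b had the lowest p of the list in male sham rats for BAT over SAT and BAT over VAT, at log2 6.75 and 13.3. None passed the threshold for PCB 52 over sham in any sex and depot, where 28 to 58 were tested; at an unadjusted p under 0.05 there were 6 of 58 in male BAT, among them Phkg1 at -1.24 and Mrln at -1.57, where 9.86% of all genes were, and 0 to 2 in the other sexes and depots. In male sham rats 45 of 60 were higher in BAT than in SAT (28% of all genes), 52 of 60 higher in BAT than in VAT (26.5%) and 33 of 60 higher in SAT than in VAT (12.4%). The female counts were 11, 48 and 36 of 59, against 20.3%, 14.3% and 23.2% of all genes. Of the satellite cell and myogenic genes, Myog and Myod1, regulators of muscle differentiation, reached 15.9 and 11.7 CPM in BAT and at most 0.135 and 0 CPM in VAT. They were highest in PCB 52 female 24 (Myog) and sham female 6 (Myod1), which also led their groups in the contractile genes. Of the myogenic genes tested in male sham rats, 3 of 4 were higher in BAT than in SAT (28% of all genes). Against VAT, 4 of 4 were higher in BAT (26.5%) and 3 of 4 in SAT (12.4%). Females had 0, 1 and 1 of 2, against 20.3%, 14.3% and 23.2%. Neuromuscular junction genes went both ways. Colq was higher in BAT than in VAT, at 3.89 in females and 6.41 in males. Chrna1 was lower, at -1.91 and -1.84 (edgeR adjusted p = 0.00758 and 0.0109).

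Heart and smooth muscle markers were read as those of other muscle types. The heart genes Nppa, Tnni3 and Myl7 were at most 0.407, 0.784 and 1.31 CPM in any library. Tnnt2 and Myl4 of the same list had other patterns. Tnnt2 in sham males was higher in SAT than in VAT, at a log2 of 4.81 (edgeR adjusted p = 0.00957). It was lower in BAT than in SAT, at -5.47 (edgeR adjusted p = 0.00185). Myl4 was lower in BAT than in VAT, at -2.25 in sham females and -2.04 in sham males (edgeR adjusted p = 0.0308 and 0.011). Myh6, the heart alpha myosin, reached 109 CPM in BAT of PCB 52 female 24, where Myh7 was 2162 CPM. The summed heart list was 1.53 to 126 CPM in BAT, 3.80 to 131 in SAT and 4.21 to 27.9 in VAT. Smooth muscle markers, 8 of 8 with counts, had another pattern in their sum. It was 275 to 1002 CPM in BAT, 361 to 2464 CPM in SAT and 232 to 891 CPM in VAT, and the lowest BAT value belonged to PCB 52 female 24, the library highest in skeletal muscle. Single markers were mixed. In sham rats 2 of 8, Mylk and Lmod1, were higher in BAT than in VAT, like the skeletal genes. They had log2 2.63 and 2.88 in females (14.3% of all genes higher) and 1.94 and 2.10 in males (26.5%). SAT over VAT was higher for 7 of 8 in females (23.2% of all genes). In males 2 of 8 were higher (12.4%) and 1 lower. In male BAT, Tagln, Actg2, Myh11 and Acta2 were at an unadjusted p under 0.05 for PCB 52 over sham, against 9.86% of all genes, with fold changes of -0.51, -1.34, -0.34 and -0.33, and 0 were called.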

How the data were processed

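RNA from brown, subcutaneous and visceral fat of 24 rats was sequenced in 70 libraries. Per the labels' protocols, about 100 mg of tissue was lysed and samples whose RNA integrity number was below 8 were dropped. Libraries were made after either poly(A) selection or depletion of rRNA, and which of them is not specified. The submitters' processing notes name FastQC, HISAT2 and the build rn6. The counting program, the annotation and any use of strand were not given in the sources used here. Whole-number gene counts were deposited by the authors, in 1 table for each sex and depot. The female VAT table was read as estimated counts as deposited, because 5 spreadsheet lines below its genes name no gene; these were dropped, and every gene in it has a whole number. Of 15319 NCBI gene numbers, 15230 matched RefSeq symbols and 89 did not. Without a known strand setting, reads of overlapping genes cannot be told apart, and reads of near-identical myosin or actin copies may be split between them.

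Libraries were grouped by labelled tissue, sex and treatment. Each comparison of counts was run in edgeR 4.0.16 under R 4.3.3 (TMM, the default filter on low counts, robust quasi-likelihood F test, Benjamini-Hochberg adjustment over all genes tested, threshold 0.05): PCB 52 over sham in each sex and depot and over both sexes, the interaction of sex and treatment, male over female sham, and the depots of sham rats of each sex. The alternatives were RLE scaling, no filter, DESeq2 1.42.0, limma voom (limma 3.58.1), leaving out libraries, and a term for the rat in the depot comparisons. The count comparisons were tried on simulated counts with the design of PCB 52 over sham in male BAT, by edgeR, RLE scaling, DESeq2 and limma voom. The depot, rat-term and interaction fits were not tried on simulated counts. P-values measure the spread between rats within a depot. In the depot comparisons without a term for the rat they measure the spread between libraries and ignore which libraries share a rat. Intervals and the floor of 3 counts cover counting error only.

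Of 170 pairs of libraries within groups, 0 held the same values and the chi-square per gene was 6.17 or more, so each library was its own sample. Libraries sharing a number were taken as 1 rat. For 68 pairs of libraries with the same number the median correlation of deviations was 0.086, with 29 over 0.1, against -0.018 for 340 pairs with different numbers. The named genes were Ckm, Acta1, Mb, Pvalb, Actn2, Mybpc1 and both partners of 6 isoform pairs, plus members that led a comparison; the levels of Mybpc2 and the libraries set apart were added with their values known. The members and lists were chosen with earlier results of these data known.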

Additional observations from a re-analysis of the deposited data

Results flagged for a closer look

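In 70 of 240 checks, made for the 35-gene sum and 19 single genes in each of the 12 groups on log2(CPM + 0.5), 1 library lay so far from the others that its gap was above Dixon's 95% critical value. For normally distributed values chance flags about 1 in 20 groups, and the genes share libraries, so the flags are not independent. A gene at 0 in all libraries of a group but 1 is always flagged, even by 1 count, so the rate does not hold there. Values are CPM, and no explanation of them was tested.

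In BAT of sham males, rat 7 was lowest in 16 items. Its sum was 1370.4 CPM where the rest began at 29732.5 CPM. Single genes in this library were Ckm at 51.67, Acta1 at 105.5, Pvalb at 10.21, Actn2 at 21.83, Mybpc1 at 6.208, Myh4 at 52.67 and Myh7 at 3.204 CPM. The others were Mylpf at 22.03, Myl1 at 34.45, Myl3 at 0.8011, Tnnt3 at 29.84, Tnnt1 at 0.6008, Tnni2 at 13.42, Tnni1 at 0.6008 and Tnnc2 at 13.62 CPM.

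In BAT of PCB 52 males, rat 23 was lowest in 9 items. Its sum was 881.3 CPM where the rest began at 8460.9 CPM. Ckm was at 58.42, Acta1 at 83.53, Mybpc1 at 6.974, Mylpf at 18.75, Myl1 at 28.51, Tnni2 at 11.62, Tnnc2 at 18.6 and Mybpc2 at 131.3 CPM. In BAT of sham females, Mybpc2 was lowest in rat 4, at 180.7 CPM.

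In SAT of PCB 52 males, rat 19 was highest in 6 slow genes, with Myh7 at 119.4, Myl2 at 1.637, Myl3 at 13.69, Tnnt1 at 29.32, Tnni1 at 19.05 and Tnnc1 at 12.8 CPM. In SAT of sham males, rat 3 was highest in the same 6 genes, with Myh7 at 125.9, Myl2 at 2.152, Myl3 at 35.81, Tnnt1 at 41.96, Tnni1 at 20.9 and Tnnc1 at 19.83 CPM. In SAT of PCB 52 females, Myl2 was highest in rat 18, at 2.09 CPM. In SAT of sham females, rat 8 was highest in Myh7 at 87.91, Tnnt1 at 154.9 and Tnnc1 at 141.2 CPM. All these SAT flags fell on slow genes.

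In VAT of sham females, rat 8 was highest in 13 items. Its sum was 1957.8 CPM where the rest ended at 155.1 CPM. Ckm was at 171.3, Acta1 at 323.8, Pvalb at 28.3, Actn2 at 9.479, Myh4 at 267.7, Myh7 at 24.51 and Myl2 at 0.1354 CPM. The Myl2 value is 1 count, with the rest at 0. The others were Myl1 at 73.13, Myl3 at 4.469, Tnni2 at 45.5, Tnni1 at 5.417 and Tnnc2 at 50.38 CPM.

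Other libraries stood apart in VAT. In PCB 52 males, rat 13 was highest in Acta1 at 5.2 and Pvalb at 0.13 CPM and lowest in Myl1 at 0 CPM, and rat 23 was lowest in Tnnc1 at 0.6742 CPM. In sham males, rat 11 was highest in Acta1 at 26.55, Myl2 at 0.3087 and Tnni1 at 0.1543 CPM, rat 9 highest in Myh7 at 0.1452 CPM and rat 7 lowest in Mybpc1 at 0 CPM. In PCB 52 females, rat 20 was lowest in the sum, at 85.61 CPM, and in Tnnt3 at 5.872 CPM. Among the same females, Pvalb was highest in rat 22 at 0.1334 CPM, Actn2 and Mybpc1 in rat 18 at 0.1378 and 10.75 CPM, and Myh7 in rat 14 at 0.1394 CPM.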

How the results depend on the processing

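Every count of members called was recomputed under RLE scaling, without the filter, with DESeq2 and with limma voom. Each library was also left out in turn within a sex, between the sexes and between depots. The share of all genes called in these alternatives is not given here. The fits over both sexes and the interactions were repeated only without the 4 libraries that stood apart, an alternative chosen after seeing the data. For PCB 52 over sham and its interaction with sex, the count was 0 in every one of these fits. DESeq2 called 1 member in male over female sham VAT, where leaving out 1 library gave 0 to 3. Limma voom called 21 members in BAT over VAT and 18 in SAT over VAT of sham females, and 3 in SAT over VAT of sham males. Leaving out 1 library gave 1 to 7 members in BAT over SAT of sham females and 16 to 33 in that of sham males; the cause was not tested.

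The replicate block, a term for the rat, gave 4 members in BAT over SAT of sham females and left the other depot counts within 1.5 times of the fit without it, at 26 to 35.

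Single genes turned round in these cases, in edgeR unless voom is named. Ckm in female BAT, PCB 52 over sham, had log2 values of -0.36 by limma voom, -0.06 and -0.00084 without sham females 4 and 12, and -0.54 without PCB 52 female 24; leaving out 1 library gave -0.54 to 0.58. Tnnc1 in female SAT had 2.06 without sham female 8, over a range of -3.765 to 2.06. Ckm in BAT over SAT of sham females had 0.19 by limma voom, 2.19 with the replicate block, and 0.15, 0.14, 1.24 and 0.03 without BAT of rats 4 and 12 and SAT of rats 8 and 12, over a range of -0.45 to 1.24. In the interaction of sex and treatment in SAT, leaving out sham female 8 gave -2.32 for Tnnc1 and -0.43 for Ckm. The cause was not tested. Values of single genes kept their direction and side of the threshold in 507 alternatives, turned round in 13, lost the call in 7 and gained it in 3. At 3 counts the detection limit was 0.384 to 0.652 CPM in BAT, the depot of lowest totals. It was 0.309 to 0.464 CPM in VAT, where 9 of the 35 genes passed it in at most 1 library.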
